A study of Mus musculus with 6 samples.

Results

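Bipolar cells of the mouse retina are described here through 10 of their identity markers, which are *Vsx1*, *Sebox* and *Bhlhe23* (transcription factors), *Pcp2* and *Car8* (modulators of signaling), *Cabp5*, *Scgn* and *Cabp2* (calcium-binding proteins), and *Grik1* and *Grm5* (glutamate receptors). The genes were taken by name, as known markers of rod, ON cone and OFF cone bipolar cells. Their values were not part of the rule, but the list was drawn up with earlier results of these data known. Of the 10 markers, 9 had a row in the count table of 31169 genes, and all 9 passed the filter on low counts that left 17707 genes to test. *Cabp2* was not analysed here.

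The libraries were made from whole retina of C57BL/6 mice that were injected at 1 month of age, into the anterior chamber of the eye, and killed 4 weeks later, at 2 months of age. In the microbead group (3 libraries), beads of 15 μm in diameter were injected to block the outflow of fluid and raise the intraocular pressure, which is a model of glaucoma. In the saline group (3 libraries), the eye received saline. For its sequencing, the study states a larger number of retinas per group than the 3 libraries used here. The study injected both eyes of each mouse, and the labels do not say whether a library holds 1 retina or a pool, or which retinas came from the same mouse. The p-values thus measure the spread between these libraries only.

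Bipolar cells carry the light response from photoreceptors to amacrine and ganglion cells. Rod bipolar cells and ON cone bipolar cells sense glutamate through the metabotropic receptor mGluR6 and depolarize to light, whereas OFF cone bipolar cells sense it through ionotropic AMPA and kainate receptors and depolarize to darkness. The many types are told apart by transcription factors, calcium-binding proteins and receptors of the kind listed here. In bulk retina, fewer cells of a type and less RNA per cell cannot be told apart, and several of these genes are also transcribed in other retinal neurons, *Grm5* and *Scgn* among them.

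The bipolar markers did not move together after microbead injection. Of the 9 markers tested, *Sebox* was higher in microbead retina, *Bhlhe23* and *Grm5* were lower, and the other 6 did not pass the test (quasi-likelihood test of edgeR, adjusted p under 0.05). The 3 markers called stand beside 12.8% of all tested genes, the 1 higher marker beside 6.46%, and the 2 lower markers beside 6.31%. The 3 saline and the 3 microbead values did not overlap for 6 of the 9 markers, 2 of them higher and 4 lower after microbead injection, and the same held for 37.8% of all tested genes. The median log2 fold change (microbead over saline) was -0.16 over the 9 markers and -0.03 over all tested genes. Levels are given in counts per 1000000 (CPM) of the scaled library size.

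The summed level of the 9 markers was 606, 647 and 779 CPM in saline retina and 815, 671 and 591 CPM in microbead retina. The sums overlapped between the groups.

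**Figure D1:**
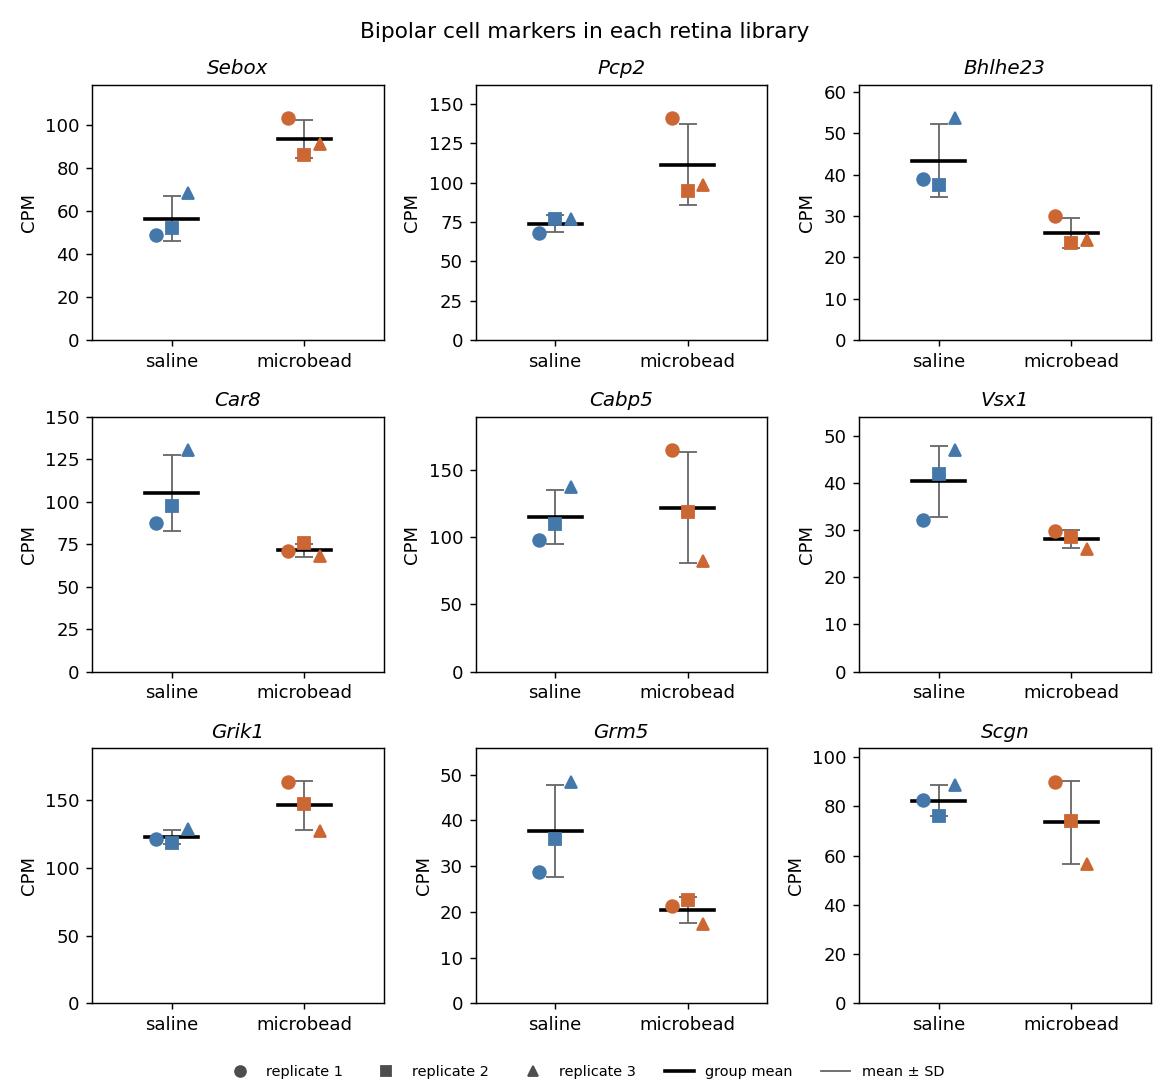
Level of each of the 9 markers (CPM, vertical axis from 0) in the 3 saline (blue) and 3 microbead (orange) libraries, with the symbol giving the replicate, the thick line the group mean and the bar ± 1 SD. The groups are separated for *Sebox*, *Pcp2*, *Bhlhe23*, *Car8*, *Vsx1* and *Grm5*, and overlap for *Cabp5*, *Grik1* and *Scgn*.

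The 150 bases before the start of transcription are shown for the marker that rose (*Sebox*), for a marker that fell (*Bhlhe23*), for *Pcp2*, which leaned with *Sebox*, and for *Cabp5*, which overlapped between groups. The sequences are those of RefSeq (GRCm38.p6), read 5′ to 3′ on the strand of the gene, and each ends just before the outermost start given by RefSeq or GENCODE. RefSeq windows (250 bases before to 50 after the start) were matched for 7 of the 10 markers. Capitals mark TAATCC, the core motif of the photoreceptor and bipolar factors CRX and OTX2, or TTAAAA, each on either strand.

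Sebox, chr11:78503297-78503446, forward strand: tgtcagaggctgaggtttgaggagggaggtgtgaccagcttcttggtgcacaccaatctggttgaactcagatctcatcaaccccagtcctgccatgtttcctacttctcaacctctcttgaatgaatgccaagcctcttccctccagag
Bhlhe23, chr2:180776901-180777050, reverse strand: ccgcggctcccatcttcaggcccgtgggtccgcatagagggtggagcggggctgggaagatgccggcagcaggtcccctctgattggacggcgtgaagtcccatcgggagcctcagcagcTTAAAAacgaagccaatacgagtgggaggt
Pcp2, chr8:3625548-3625697, reverse strand: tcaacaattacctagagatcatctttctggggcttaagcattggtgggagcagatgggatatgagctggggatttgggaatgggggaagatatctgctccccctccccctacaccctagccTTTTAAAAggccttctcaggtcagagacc
Cabp5, chr7:13397982-13398131, forward strand: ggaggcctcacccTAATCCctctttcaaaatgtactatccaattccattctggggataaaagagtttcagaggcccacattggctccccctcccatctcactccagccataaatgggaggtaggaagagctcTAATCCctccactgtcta

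TAATCC or its reverse complement stood at -160 and -41 from the RefSeq start of *Cabp5*. It also stood at -136 and -124 from the second of the 2 RefSeq starts of *Cabp2*, which lies 1941 bases past the GENCODE start. The other *Cabp2* window held no match. Of all 32851 RefSeq windows, 7.06% hold TAATCC or its reverse complement. The homeodomain motif TAATTA, held by 5.29% of all windows, stood at -101 from the third of the 4 RefSeq starts of *Pcp2*. The E-box CATATG, held by 3.91% of all windows, was found in no marker's window. TTAAAA, whose letters were chosen after the windows had been read, stood between 45 and 20 bases before the start in *Bhlhe23* (-30), *Pcp2* (-27, and -29 on the other strand) and *Sebox* (-42, which lies past the GENCODE start and is not printed), as in 2.18% of all windows. The letters were thus present at a gene that rose and at one that fell.

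*Sebox* (ENSMUSG00000001103.7, chr11:78503447-78505081, forward strand) encodes a homeobox protein found in rod bipolar cells. Its level was 49.0, 51.9 and 68.4 CPM in saline retina and 103, 85.9 and 91.0 CPM in microbead retina. Every microbead library stood above every saline library, by at least the gap between 68.4 and 85.9 CPM. The mean rose from 56.4 ± 10.5 CPM (SD, n = 3) to 93.4 ± 8.87 CPM (n = 3), which is a difference of 65.5% and a log2 fold change of 0.73 (SE 0.19, edgeR adjusted p = 0.0356). The log2 fold change stayed between 0.63 and 0.89 when each library was left out in turn. It passed the threshold only without saline replicate 3 (adjusted p = 0.0233 by edgeR), and in the other 5 such fits the edgeR adjusted p ran from 0.0695 to 0.148.

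*Bhlhe23* (ENSMUSG00000045493.4, chr2:180774381-180776900, reverse strand, 1 exon) encodes a basic helix-loop-helix transcription factor that rod bipolar cells need to mature and survive. Saline libraries held 39.0, 37.6 and 53.7 CPM and microbead libraries 30.1, 23.4 and 24.2 CPM. All microbead values were below the lowest saline value, and saline replicate 3 stood above the other saline libraries. The mean fell by 40.4%, from 43.4 ± 8.91 to 25.9 ± 3.64 CPM (SD, n = 3 each), with a log2 fold change of -0.75 (SE 0.20, edgeR adjusted p = 0.0429). Without saline replicate 3 the log2 fold change was -0.57 (edgeR adjusted p = 0.107), and of the fits without 1 library it passed only without saline replicate 1 (adjusted p = 0.0384 by edgeR).

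*Bhlhe23* shares 144 bases, or 5.71% of its exon length, with *Gm14343*, a transcript on the same strand. *Gm14343* had 1.35, 1.16 and 0.342 CPM in saline and 4.48, 3.68 and 3.83 CPM in microbead retina, with a log2 fold change of 2.06 (SE 0.50, edgeR adjusted p = 0.0317). The overlapping transcript thus rose while *Bhlhe23* fell, and its mean of 0.953 CPM in saline and 4.00 CPM in microbead retina stayed below that of *Bhlhe23*.

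*Vsx1* (ENSMUSG00000033080.9, chr2:150680702-150689360, reverse strand) encodes a homeodomain protein of some cone bipolar types. Its level was 32.2, 42.0 and 47.0 CPM in saline and 29.9, 28.6 and 26.1 CPM in microbead retina. The groups did not overlap, but saline replicate 1 came within 3 CPM of the highest microbead library. The log2 fold change was -0.52 (SE 0.19, edgeR adjusted p = 0.0976), which did not pass. Without saline replicate 1 it was -0.66 and passed (edgeR adjusted p = 0.0464).

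Counts of *Sebox* and *Bhlhe23* in the same library can be set against each other without any scaling between libraries. The ratio of *Sebox* to *Bhlhe23* counts was 1.26, 1.38 and 1.27 in saline retina and 3.43, 3.67 and 3.77 in microbead retina. The means were 1.30 ± 0.0676 and 3.62 ± 0.172 (SD, n = 3 each), and the libraries of a group lay closer together in this ratio than in either gene alone. The pair was chosen after the values of both genes were seen, so the ratio is a description with no test. Both genes are markers of rod bipolar cells, and they moved apart.

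*Pcp2* (ENSMUSG00000004630.18, chr8:3623371-3625545, reverse strand) encodes a protein that binds G protein alpha subunits and marks rod and some ON cone bipolar cells. Its level was 67.8, 76.8 and 76.9 CPM in saline and 141, 94.4 and 98.5 CPM in microbead retina. Every microbead library was above every saline library, with microbead replicate 1 well above the other two. The log2 fold change was 0.59 (SE 0.20, edgeR adjusted p = 0.0733), which did not pass by edgeR and passed by DESeq2 (0.60, DESeq2 adjusted p = 0.0452). Without microbead replicate 1 it was 0.38 (edgeR adjusted p = 0.155).

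On the opposite strand, *Pet100*, a gene for a mitochondrial assembly factor, covers 941 bases or 51.5% of the exon length of *Pcp2*. *Pet100* was at 12.1, 8.61 and 8.22 CPM in saline and 31.5, 21.3 and 18.7 CPM in microbead retina (log2 fold change 1.31, SE 0.26, edgeR adjusted p = 0.0187). Both genes were thus highest in microbead replicate 1. The library kit marks strand, but whether the counting used it is not given in the sources used here. Without strand, reads that lie within the 941 shared bases cannot be told apart between these genes. The part of *Pet100* in the *Pcp2* values was not tested.

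*Car8* (ENSMUSG00000041261.9, chr4:8143362-8239041, reverse strand) encodes a carbonic anhydrase relative without enzyme activity that binds the inositol trisphosphate receptor. Saline retina held 87.4, 97.6 and 131 CPM and microbead retina 70.8, 75.7 and 67.9 CPM. The groups did not overlap, and saline replicate 3 was the highest library. The log2 fold change was -0.56 (SE 0.19, edgeR adjusted p = 0.0790), and -0.37 (edgeR adjusted p = 0.211) without saline replicate 3. With no filter on low counts, the adjusted p was 0.0451 (edgeR).

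The ratio of *Pcp2* to *Car8* counts was 0.776, 0.787 and 0.589 in saline retina and 1.99, 1.25 and 1.45 in microbead retina. *Pcp2* was the lower of both in every saline library and the higher in every microbead library. The ratio of *Sebox* to *Pcp2*, which leaned the same way, ran from 0.676 to 0.889 in saline and from 0.732 to 0.924 in microbead retina and overlapped. So did that of *Bhlhe23* to *Car8*, which ran from 0.385 to 0.446 in saline and from 0.309 to 0.424 in microbead retina. These pairs too were chosen after their values were seen.

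**Figure D2:**
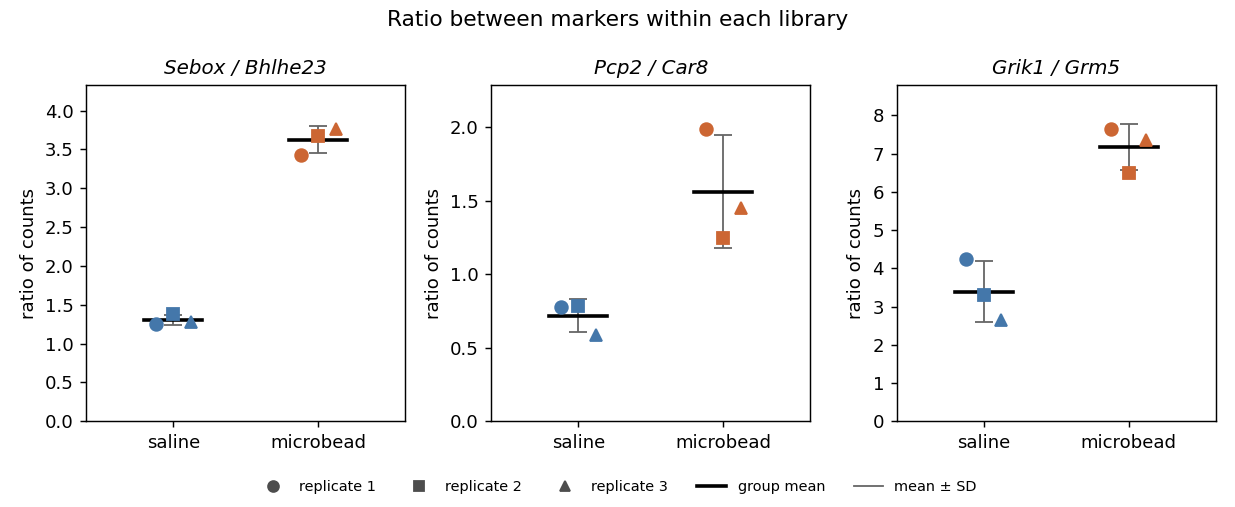
Ratio of the counts of 2 markers within each library (vertical axes from 0) for *Sebox* over *Bhlhe23*, *Pcp2* over *Car8* and *Grik1* over *Grm5*, with the symbol giving the replicate, the thick line the group mean and the bar ± 1 SD. The saline (blue) and microbead (orange) libraries are separated in all 3 pairs, with the *Sebox* to *Bhlhe23* ratio at 1.26 to 1.38 against 3.43 to 3.77.

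The calcium-binding markers did not separate the groups. *Cabp5* (ENSMUSG00000005649.17, chr7:13398132-13408887, forward strand), an EF-hand protein of rod and some cone bipolar cells that binds calcium channels, was at 98.3, 110 and 138 CPM in saline and 165, 119 and 82.2 CPM in microbead retina. The highest and the lowest library were both microbead libraries, and the log2 fold change was 0.08 (SE 0.25, edgeR adjusted p = 0.856). Leaving out 1 library moved it between -0.20 (without microbead replicate 1) and 0.29 (without microbead replicate 3), across 0.

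*Scgn* encodes secretagogin, an EF-hand calcium sensor of some cone bipolar types (chr13:23953456-23991214, reverse strand). Its level was 82.4, 76.0 and 88.6 CPM in saline and 90.0, 73.9 and 56.5 CPM in microbead retina. The microbead libraries spread on both sides of the saline libraries, with replicate 3 the lowest, as it was for *Cabp5*. The log2 fold change was -0.16 (SE 0.20, edgeR adjusted p = 0.609). The standard errors of both genes leave room for differences of the size seen in *Vsx1*, so that a difference was not detectable with these libraries, which does not show that there was none.

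Among the glutamate receptors, *Grm5* was lower after microbead injection and *Grik1* overlapped. *Grm5* (ENSMUSG00000049583.15, chr7:87584168-88134907, forward strand) encodes mGluR5, a group I metabotropic receptor that acts through phospholipase C. It was at 28.7, 36.0 and 48.4 CPM in saline and 21.4, 22.7 and 17.3 CPM in microbead retina. All microbead libraries were below all saline libraries, and the saline libraries spread widely. The mean fell by 45.8%, from 37.7 ± 9.99 to 20.4 ± 2.81 CPM (SD, n = 3 each), with a log2 fold change of -0.88 (SE 0.23, edgeR adjusted p = 0.0368). Without saline replicate 3 the log2 fold change was -0.67 (edgeR adjusted p = 0.0865). Of the fits without 1 library, *Grm5* passed only without saline replicate 1 (-1.05, edgeR adjusted p = 0.0165).

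*Grik1* encodes GluK1, a kainate receptor subunit of OFF cone bipolar cells (chr16:87895900-88290265, reverse strand). Its level was 122, 119 and 128 CPM in saline and 163, 147 and 127 CPM in microbead retina. Only microbead replicate 3 reached into the saline range, and the log2 fold change was 0.25 (SE 0.16, edgeR adjusted p = 0.332). The ratio of *Grik1* to *Grm5* counts was 4.24, 3.29 and 2.65 in saline and 7.65, 6.49 and 7.36 in microbead retina. The ratios did not overlap, and the pair was chosen after the values were seen.

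**Figure D3:**
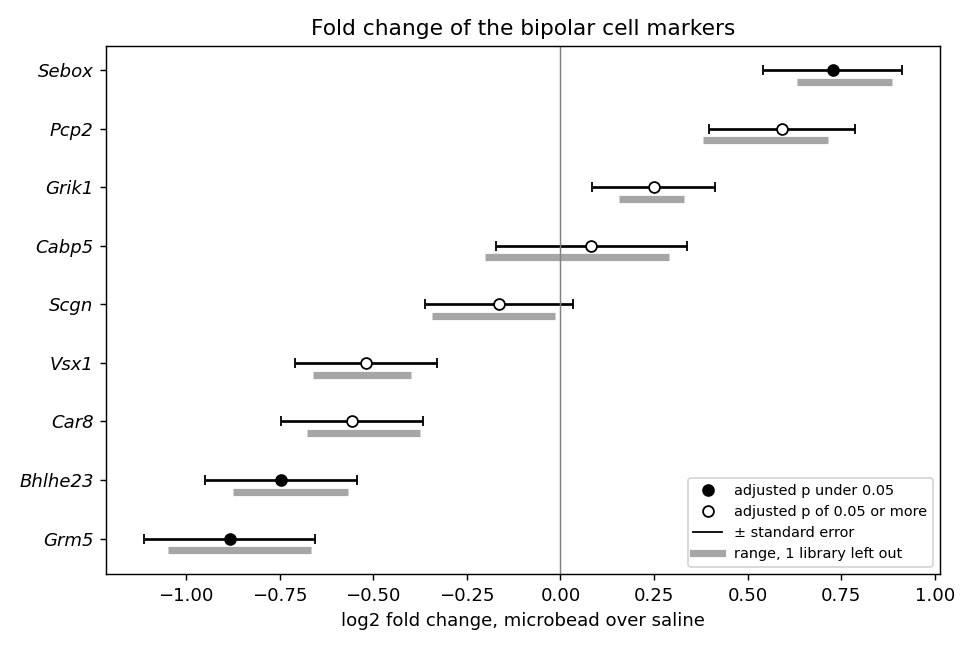
Log2 fold change (microbead over saline, horizontal axis) of each of the 9 markers with its standard error (black bar) and the range over the 6 fits that each left out 1 library (gray bar). Filled points mark an adjusted p under 0.05 with all 6 libraries, which *Sebox* (0.73), *Bhlhe23* (-0.75) and *Grm5* (-0.88) reached, and *Cabp5* is the marker whose gray bar crosses 0.

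The markers differed in level more between genes than between groups. Divided by exon length (CPM per kilobase of merged exons, GENCODE vM21), saline levels were highest for *Scgn* (50.9 ± 3.88), followed by *Cabp5* (45.6 ± 7.99), *Sebox* (41.5 ± 7.69) and *Pcp2* (40.4 ± 2.86, SD, n = 3 each), and each of these overlapped with the next. *Car8* (27.3 ± 5.84) was below *Pcp2* in every saline library, and *Grik1* (18.3 ± 0.748) below *Car8*. *Bhlhe23* (17.2 ± 3.54) overlapped with *Grik1*, whereas *Vsx1* (10.6 ± 1.99) and *Grm5* (3.68 ± 0.975) were each separated from the marker above.

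In microbead retina the order of the levels per kilobase was led by *Sebox* (68.7 ± 6.53) and *Pcp2* (60.9 ± 14.1), ahead of *Cabp5* (48.3 ± 16.4) and *Scgn* (45.4 ± 10.4, SD, n = 3 each), although neighbors in that order overlapped. *Grik1* (21.7 ± 2.69) and *Car8* (18.6 ± 1.03) came next and overlapped with each other. *Bhlhe23* (10.3 ± 1.45), *Vsx1* (7.43 ± 0.511) and *Grm5* (1.99 ± 0.274) remained the last 3, each separated from the marker above. The leading 4 and the last 3 markers were thus shared by both groups.

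**Figure D4:**
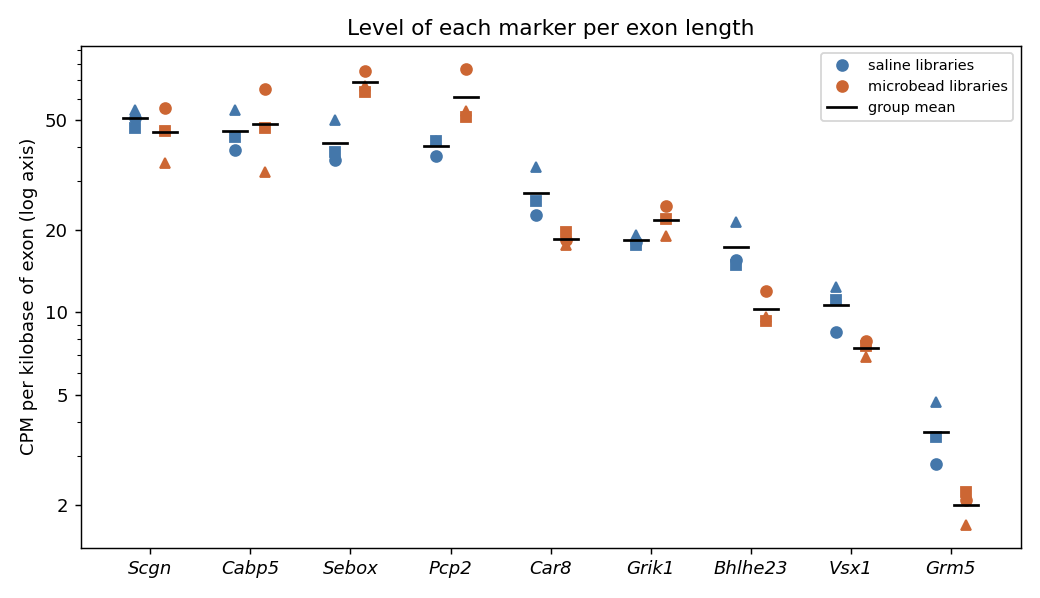
Level of each marker per exon length (CPM per kilobase, log axis) in saline (blue) and microbead (orange) libraries, with circles, squares and triangles for replicates 1, 2 and 3 and a line for each group mean. Markers stand in the order of their saline mean, from *Scgn* (50.9) to *Grm5* (3.68).

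Other genes of bipolar cells were listed by role, and 11 of the 64 that were tested were called, 6 higher and 5 lower after microbead injection, beside 12.8% of all tested genes. The count depended on single libraries: it was 0 without microbead replicate 3, 1 (*Col11a1*) without saline replicate 2, 5 and 6 without microbead replicates 1 and 2, 8 without saline replicate 3 and 19 without saline replicate 1, all by edgeR. Over all genes, the same fits called 46 of 19313 without microbead replicate 3 and 293 of 17424 without saline replicate 2. They called 748 of 19211 and 768 of 19138 without microbead replicates 1 and 2. Without saline replicates 3 and 1 they called 1480 of 17577 and 2621 of 17321. Each of the 11 genes passed in 1 to 4 of these 6 fits. The photoreceptor and bipolar factor *Otx2* and the rod bipolar kinase *Prkca*, which were picked for mention after their values were seen, overlapped between groups. *Otx2*, at 210 to 287 CPM in saline and 231 to 257 CPM in microbead retina, had a log2 fold change within 0.06 of 0 under every scaling. *Prkca* was at 322 to 448 and 278 to 385 CPM (log2 fold change -0.28, SE 0.20, edgeR adjusted p = 0.362).

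Of the 11 bipolar transcription factors, 2 were higher and 0 lower by edgeR, beside 6.46% and 6.31% of all tested genes. *Fezf2*, a zinc finger transcription factor of neuronal subtype identity, was at 9.35, 10.4 and 8.19 CPM in saline and 16.4, 17.6 and 18.5 CPM in microbead retina (log2 fold change 0.91, SE 0.20, edgeR adjusted p = 0.0248). *Prdm8*, a PR-domain factor needed by rod bipolar and some OFF cone bipolar cells, was at 73.1, 61.7 and 64.4 CPM in saline and 166, 105 and 119 CPM in microbead retina (0.97, SE 0.20, edgeR adjusted p = 0.0212). Both genes separated the groups. An antisense gene, *A730035I17Rik*, covers 29.1% of the exon length of *Prdm8* and was at a mean of 1.74 CPM in saline and 6.19 CPM in microbead retina.

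In the mGluR6 cascade of ON bipolar cells, 1 of 12 genes was higher and 1 lower. *Rgs11*, which speeds the inactivation of the G protein Go, was at 63.7, 47.6 and 34.8 CPM in saline and 108, 109 and 123 CPM in microbead retina (log2 fold change 1.22, SE 0.23, edgeR adjusted p = 0.0159). *Nyx*, whose product nyctalopin holds the TRPM1 channel at the synapse, was at 26.2, 29.9 and 35 CPM in saline and 10.8, 17.4 and 11.4 CPM in microbead retina (-1.20, SE 0.24, edgeR adjusted p = 0.0178). The 1 higher and the 1 lower gene of 12 stand beside 6.46% and 6.31% of all tested genes, and the median over the 12 genes was 0.10. Of the other 5 rod bipolar genes, 0 were called by edgeR, and the largest log2 fold change was that of *Vstm2b* (-0.35, edgeR adjusted p = 0.214), which encodes a membrane protein of the immunoglobulin family.

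Genes that mark cone bipolar types gave 2 higher and 4 lower genes of 19 tested, beside 6.46% and 6.31% of all tested genes. Their median log2 fold change was -0.33. *Col11a1*, a fibrillar collagen, was at 4.91, 5.72 and 1.40 CPM in saline and 16.5, 22.8 and 20.8 CPM in microbead retina (log2 fold change 2.31, SE 0.44, edgeR adjusted p = 0.0168). *Nnat*, which encodes the membrane proteolipid neuronatin, also rose (0.78, SE 0.18, edgeR adjusted p = 0.0266). The synaptic vesicle calcium sensor *Syt2* fell from between 39.2 and 46.1 CPM to between 20.3 and 24.4 CPM (-0.90, SE 0.17, edgeR adjusted p = 0.0166). The transcription factor *Sox6* (-1.01, adjusted p = 0.0329), the protocadherin *Pcdh17* (-0.98, adjusted p = 0.0411) and the neurokinin receptor *Tacr3* (-0.89, adjusted p = 0.0325) fell as well by edgeR. Of the 6 fits without 1 library, *Sox6* and *Pcdh17* passed in 2 each and *Tacr3* in 1, and *Pcdh17* also lost its call without the 100 most abundant genes.

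The partners of the members' proteins were given by 3 further lists. *Grik2*, the kainate receptor subunit GluK2, was the 1 gene called among 6 kainate receptor partners, beside 12.8% of all tested genes. Its level was 10.9, 14.1 and 11.5 CPM in saline and 25.7, 26.8 and 22.5 CPM in microbead retina (log2 fold change 1.04, SE 0.20, edgeR adjusted p = 0.0164). *Grik3* had a log2 fold change of -1.18 (SE 0.47, edgeR adjusted p = 0.120) that came with 48.8 CPM in saline replicate 1 against 13.8 and 14.1 CPM in the other saline libraries. It was -0.31 without that library.

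Among 7 partners of group I metabotropic receptors, 0 passed by edgeR. *Homer1*, a scaffold that binds mGluR5, was at 30.4, 35.4 and 35.5 CPM in saline and 23.9, 24.3 and 16.2 CPM in microbead retina (log2 fold change -0.65, SE 0.20, edgeR adjusted p = 0.0644). The groups did not overlap, and the median over the 7 genes was -0.48.

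Of 6 relatives of the calcium-binding markers, 5 were tested and 0 were called by edgeR, with *Pvalb* (log2 fold change 0.73, adjusted p = 0.0798) and *Calb1* (-0.61, adjusted p = 0.154) the largest. The sixth, *Cabp4*, had 1 count in microbead replicate 1 and 0 in the other 5 libraries. Why so few reads were counted for it was not tested, so its absence from retina cannot be read from these counts.

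**Figure D5:**
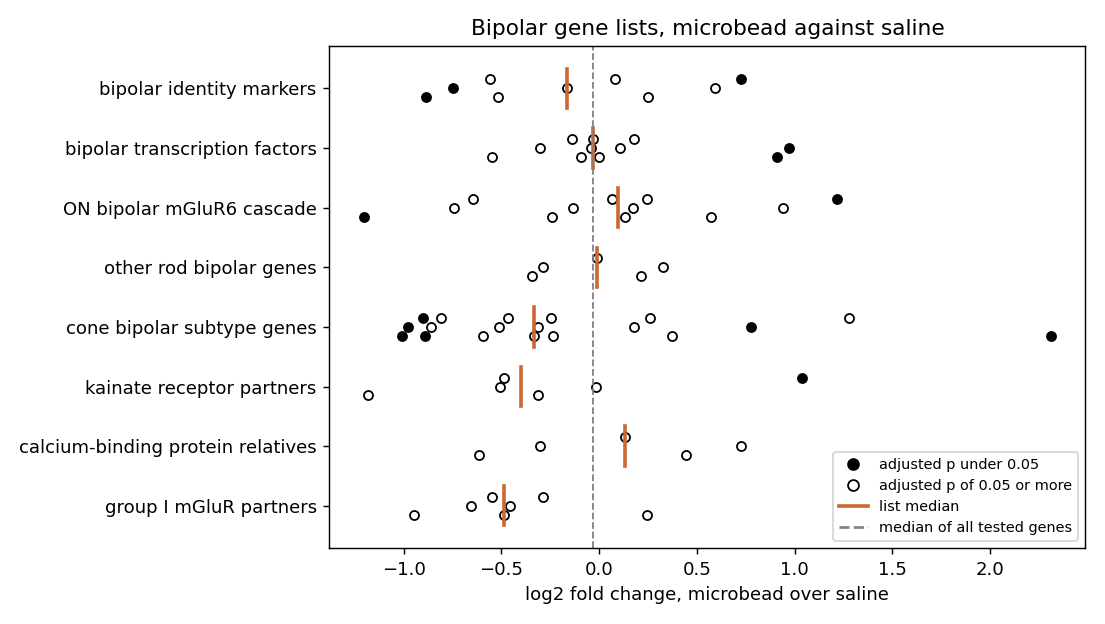
Log2 fold change (microbead over saline, horizontal axis) of each tested gene in the marker list and 7 lists of other bipolar genes, with filled points for an adjusted p under 0.05, an orange bar for the list's median and a dashed line for the median of all tested genes (-0.03). Genes stand on both sides of 0 in every list, and the marker list runs from -0.88 (*Grm5*) to 0.73 (*Sebox*).

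Marker genes of other cell types moved between libraries as well. Summed Müller glia markers, led by *Glul*, ran from 6836 to 10400 CPM in saline and from 5353 to 6681 CPM in microbead retina without overlap, with 3 of 10 genes lower and 0 higher, beside 6.31% of all tested genes lower. Summed endothelial markers, led by *Kdr*, ran from 467 to 669 CPM and from 291 to 441 CPM without overlap, with 3 of 8 lower beside the same 6.31%. Amacrine markers (0 of 10 called by edgeR) summed to 1088, 1699 and 2015 CPM in saline and 1183, 1220 and 1355 CPM in microbead retina, which overlapped. Cone (led by *Opn1sw*, 1226 to 1614 CPM), horizontal (*Prox1*, 261 to 363 CPM) and microglial (*C1qa*, 59.7 to 243 CPM) sums overlapped between groups. In the horizontal list 1 of 5 genes was called lower, beside the same 6.31%. The median log2 fold change of that list was -0.97, beside -0.03 over all tested genes. Of the rod genes 1 of 12 and of the microglial genes 1 of 8 were called lower, beside 6.31% of all tested genes. Of the cone genes 1 of 10 was called higher, beside 6.46%. Saline replicate 3 held lens markers (led by *Cryaa*) at 365 CPM and pigment epithelium markers (led by *Ttr*) at 247 CPM, against at most 28.5 and 127 CPM in the other libraries. Saline replicate 1 held ganglion cell markers (led by *Nefl*) at 371 CPM, against 909 CPM or more elsewhere. The part of these differences in the marker results was not tested.

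Total counts ran from 36085737 to 46481382 in saline and from 13574949 to 19834366 in microbead libraries. The lowest count of any marker was 266, for *Grm5*, which carries a counting error of 6.13%, so that the spread between libraries was larger than the counting error for the markers called. In the sample descriptions, all saline libraries carry library names of one series and all microbead libraries names of another. The headers of the count columns run in a single series across both groups, with the lower numbers in saline. The series of names in the descriptions, and the depth with it, cannot be told apart from the injection.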

How the data were processed

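Retinal mRNA (poly(A) selection, stranded kit, 100-bp paired-end reads) was sequenced in 3 saline and 3 microbead libraries, grouped by their labels. The authors aligned the reads with STAR 2.5.3a to GRCm38.p5 with GENCODE vM12 and counted them per gene with featureCounts 1.15.2, and the deposited values used here are these raw counts. The strand and multi-mapping settings are not given in the sources used here. The deposited table also holds the authors' DESeq2 1.14 comparison (a mean normalized signal, a log2 fold change, a linear fold change, p-values and a column of calls), which was not used.

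Genes with low counts were removed (filterByExpr, minimum count 10 and total 15), libraries were scaled by TMM, and the 17707 remaining genes were compared by the two-sided quasi-likelihood test of edgeR 4.0.16 (R 4.3.3) at a Benjamini-Hochberg adjusted p under 0.05. CPM refer to TMM-scaled library sizes. No library was left out, and none was a copy of another, since replicates differed by 22.0 to 121 times the sampling noise (chi-square over its degrees of freedom). In simulated counts (17707 genes, 200 changed), edgeR recovered 94 of 100 genes with a 4-fold and 46 of 100 with a 2-fold change. Unchanged genes made up 4.11% of the calls. The simulation gave every gene the same spread between replicates, set below that of the data (common biological coefficient of variation 0.289). It also held no deviating library, so these shares can be too favorable for the data.

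Positions, gene ID versions and exon lengths are those of GENCODE vM21 (GRCm38), and promoters those of RefSeq (GRCm38.p6). The markers and lists were chosen with earlier results of these data known. All markers are named, and of each other bipolar list the genes called or, where fewer than 2 were, the 2 with the largest absolute log2 fold change, apart from some genes that are not reported here. *Otx2*, *Prkca* and the genes that overlap a named gene were added after their values were seen. The test was repeated with RLE and with upper-quartile scaling, on library sizes without the top 100 genes by abundance, unfiltered, on genes with 10 or more counts in all libraries, by DESeq2 1.42.0 and limma-voom (limma 3.58.1), with the replicate number as a block, at 0.01, and without each library in turn.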

Additional observations from a re-analysis of the deposited data

How the results depend on the processing

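The number of markers called was 3 with all libraries and ranged from 0 to 3 when 1 library was left out. It was 0 without saline replicate 2 and without each microbead library, and 1 (*Sebox*) without saline replicate 3. By limma-voom it was 1 (*Sebox*), and at a threshold of 0.01 it was 0. An unadjusted p under 0.05 by edgeR was reached by 6 of the 9 markers, beside 5564 of all 17707 tested genes. With a replicate block 0 markers were called, and 6 had an unadjusted p under 0.05 (edgeR), beside 5231 of all 17707 tested genes. Deviations of same-numbered libraries from their group means correlated weakly (r = -0.0351, 0.136 and 0.00997), and not every library correlated best with its own number. With 3 libraries per group, these correlations cannot decide whether the numbers pair the samples. *Bhlhe23* also lost its call with upper-quartile scaling and without the 100 most abundant genes. Over all genes, 2261 calls of 17707 became 3720 of 31169 without the filter and 3621 of 31169 by DESeq2. They became 905 of 17707 with the block and 87 of 17707 at 0.01. When 1 library was left out, calls ran from 46 of 19313 (without microbead replicate 3) to 2621 of 17321 (without saline replicate 1). They were 293 of 17424 without saline replicate 2 and 1480 of 17577 without saline replicate 3. Without microbead replicates 1 and 2 they were 748 of 19211 and 768 of 19138. Among the other bipolar and related genes, 11 calls of 64 became 22 of 65 without the filter and 17 of 65 by DESeq2. They became 8 of 64 with the block and 0 of 64 at 0.01. An unadjusted p under 0.05 by edgeR was reached by 24 of these 64 genes, beside the same 5564 of 17707 tested genes. *Fezf2*, *Pcdh17* and *Tacr3* lost their calls with the block. What caused these changes in the number of calls was not tested. *Cabp5* (-0.20 to 0.29) and *Otx2* (-0.10 to 0.12) changed sign when 1 library was left out. The log2 fold change of *Otx2* was 0.0208 (RLE), 0.0427 (upper-quartile), 0.0567 (without the most abundant genes), 0.0087 (at least 10 counts), 0.0069 (DESeq2), 0.0099 (limma-voom) and 0.0098 (block). The directions of the other 8 markers held under all alternatives run. Scaling moved the median of all genes by at most 0.06.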
